A study of Mus musculus with 33 samples.

Results

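Adipocyte and adipokine genes, 10 in all, were followed in lymphoid organs of mice given nicotinamide (NAM, a form of vitamin B3). They were Adipoq, Plin1, Cidec, Lipe, Fabp4, Pparg, Ucp1, Lep, Retn and Cfd, taken by gene symbol from a table of 56414 rows, in which the 10 genes filled 11 rows. The additional row carried the symbol Lipe and averaged 0.526 normalised counts under the spleen label, so it failed the filter on low values and was set aside. A normalised count is the number of reads on a gene divided by a size factor that levels libraries of different depth, and it is not divided by gene length, so levels were compared between libraries and never between genes. The study sequenced polyadenylated RNA of 33 libraries from tumour-free C57Bl/6 mice, which drank water with 0.5% NAM for 1, 3 or 14 days or were left untreated. Of these, 20 libraries were labelled spleen, with 5 per group, and 13 were labelled lymph node (3 untreated, 2 given NAM for 1 day, 4 for 3 days and 4 for 14 days). All groups shared the strain, and the labels name no transgene and no treatment other than NAM. The study's mice were female, and the labels give neither an age per group nor which mouse each library came from.

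White adipocytes store triglyceride in a lipid droplet coated by perilipin 1 (Plin1), release it through lipases such as hormone-sensitive lipase (Lipe), and depend on the nuclear receptor Pparg for their identity. They also secrete hormones known as adipokines. Adiponectin (Adipoq), leptin (Lep), resistin (Retn) and adipsin, which is complement factor D (Cfd), are the adipokines followed here. Lymph nodes are embedded in fat, and how much of it comes along depends on the dissection. A change of an adipokine in RNA of a whole organ can therefore reflect more fat or more transcript per adipocyte, and in such bulk samples a difference in the number of cells and a difference in RNA per cell cannot be told apart. For this reason Adipoq and Plin1 were read as a measure of fat content, and the regulated genes were read both directly and against that measure.

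The tissue labels went against the markers. The summed normalised counts of 6 lymph node markers (Glycam1, Chst4, Ccl21a, Lyve1, Madcam1 and Fut7) lay between 136367 and 256539 in libraries labelled spleen and from 6951 to 15457 in libraries labelled lymph node. The sum of 6 spleen markers, among them Spic and Hmox1, lay between 3003 and 5474 where the label said spleen and between 41322 and 82622 where it said lymph node. The sets are therefore named only by their labels. Under the spleen label, a principal component holding 13.6% of the variance separated all 1-day libraries and 4 of the 3-day libraries from the rest, and replicate 1 at 3 days fell with the untreated libraries. The 3-day libraries also had at least 43632016 reads, against 18325061 to 48338251 in the other groups. Under the lymph node label, replicate 1 at 1 day carried a sum of 112597 for 8 exocrine pancreas markers, against at most 1268 in the untreated libraries.

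The regulatory windows of the genes that separate fat content from hormone output are shown because the members moved together across libraries. Promoters of 9 of the 10 genes were in RefSeq's table for GRCm38.p6, with 13 start sites, and the 250 bases before each start were searched on both strands. The motifs were the nuclear receptor half-site AGGTCA, its direct repeat spaced by 1 base (the arrangement bound by PPAR with RXR), the C/EBP motif TTGCNNAA and the TATA box TATAAA. In the sequences below capitals mark matches, and lower case marks all other bases.
Plin1, chr7:79732777-79733026, minus strand: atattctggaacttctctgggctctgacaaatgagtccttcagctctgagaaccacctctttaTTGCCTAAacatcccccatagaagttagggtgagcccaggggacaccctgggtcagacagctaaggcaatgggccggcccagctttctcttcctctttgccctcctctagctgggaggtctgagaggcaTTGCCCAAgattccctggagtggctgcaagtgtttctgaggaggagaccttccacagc
Lep, chr6:29059971-29060220, plus strand: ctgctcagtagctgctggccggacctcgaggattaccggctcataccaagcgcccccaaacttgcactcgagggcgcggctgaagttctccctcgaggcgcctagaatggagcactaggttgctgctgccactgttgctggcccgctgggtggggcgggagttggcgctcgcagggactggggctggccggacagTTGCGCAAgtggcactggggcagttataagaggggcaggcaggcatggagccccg
Retn, chr8:3655520-3655769, plus strand: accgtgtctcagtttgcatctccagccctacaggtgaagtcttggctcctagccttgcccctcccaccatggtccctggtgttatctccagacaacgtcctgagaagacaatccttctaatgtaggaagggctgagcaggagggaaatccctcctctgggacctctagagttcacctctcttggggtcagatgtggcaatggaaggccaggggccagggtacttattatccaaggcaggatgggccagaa
Plin1 held 2 C/EBP matches, the nearer of which ended 51 bases before the start. Lep held a palindromic C/EBP match, read on both strands, from 55 to 48 bases before the start. Retn, Adipoq and Cfd held no match to any of these letters in this window. The C/EBP motif stood in 4 of the 13 member promoters and in 9.56% of all 32851 promoters of that length. The half-site stood in 3 member promoters, of Pparg and Ucp1, and in 14% of all. No member promoter held the exact direct repeat, which occurred in 0.0335% of all promoters, and the TATA box stood in 1 of Pparg's promoters and in 12.4% of all. Such matches are descriptions of letters and were not tested as binding sites.

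All of these genes but Pparg and Ucp1 were higher in every library labelled spleen than in any labelled lymph node. All 10 passed the filter (a mean of at least 10 normalised counts over the libraries of a label) under the spleen label. Under the lymph node label 5 passed, namely Adipoq, Fabp4, Lipe, Pparg and Cfd, and Plin1, Lep, Cidec, Ucp1 and Retn did not. Together the member rows took 0.109% to 1.52% of the normalised counts of a library labelled spleen and 0.0057% to 0.0090% of one labelled lymph node. Adipoq ranged from 3148 to 43022 normalised counts over the 20 libraries labelled spleen and from 6.63 to 71.3 over the 13 labelled lymph node. The labels were scaled separately, so values set across them carry that limit, and no test between labels of a level was made.

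**Figure D1:**
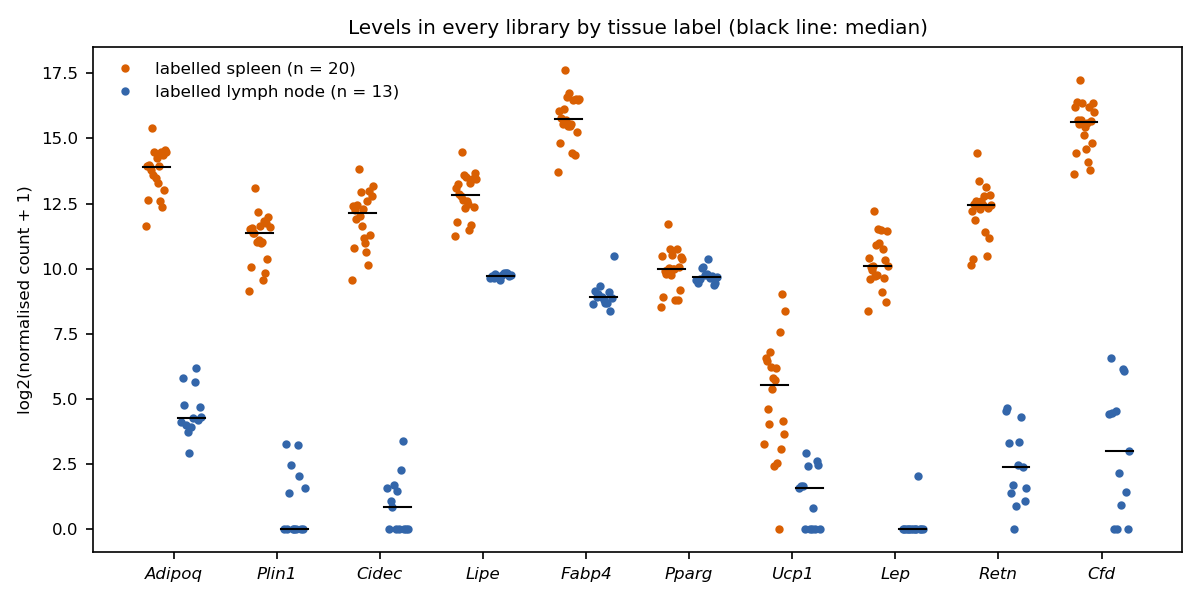
Level of each of the 10 genes in every library, as log2(normalised count + 1), with libraries labelled spleen in orange and those labelled lymph node in blue, and the median as a black line. Pparg and Ucp1 overlap between the labels, and the other genes lie higher in every library labelled spleen, as for Adipoq with 3148 to 43022 against 6.63 to 71.3 normalised counts.

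Fat content itself varied widely within every group labelled spleen. Adipoq, the adiponectin gene (chr16:23146536-23158030 of mm10), stood at 3148, 15586, 6292, 16278 and 15404 normalised counts in untreated replicates 1 to 5. At 1 day it stood at 14041, 43022, 12459, 22896 and 11316. At 3 days it was 19665, 9985, 15853, 6149 and 23072, and at 14 days 5351, 20912, 8206, 23790 and 23048. The groups overlapped, with untreated replicates 1 and 3 low and 1-day replicate 2 above all other libraries. The log2 fold change of Adipoq against untreated was 0.93 (SE 0.52) at 1 day, 0.50 (SE 0.52) at 3 days and 0.54 (SE 0.52) at 14 days, with limma adjusted p = 0.23, 0.63 and 1.00. With a library left out it ran from 0.53 to 1.13 at 1 day, from 0.10 to 0.78 at 3 days and from 0.14 to 0.88 at 14 days. Other settings took the 1-day change down to 0.34, and Adipoq passed in none of these fits. Plin1, which coats the lipid droplet (chr7:79721164-79732892), lay between 568 and 3000 in untreated libraries. It lay between 2079 and 8729 at 1 day, between 765 and 3646 at 3 days, and between 903 and 4099 at 14 days. Its log2 fold changes were 1.02, 0.29 and 0.38, each with SE 0.54 and none past the threshold. The log2 ratio of Adipoq to Plin1 was far steadier than either gene, with 2.49 ± 0.06 (SD, n = 5) in untreated libraries and 2.4 ± 0.11, 2.70 ± 0.28 and 2.65 ± 0.15 after 1, 3 and 14 days of NAM. The 2 genes thus rose and fell together from library to library, with an SD within groups of 0.92 for Adipoq and 0.95 for Plin1 on the log2 scale. Their ratio still shifted between groups. It lay between 2.42 and 2.55 in untreated libraries, and between 2.30 and 2.58, 2.28 and 3.00, and 2.54 and 2.91 at 1, 3 and 14 days. Most 3-day and 14-day values lay above the untreated range, so the 2 genes are not fully interchangeable as a measure of fat.

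**Figure D2:**
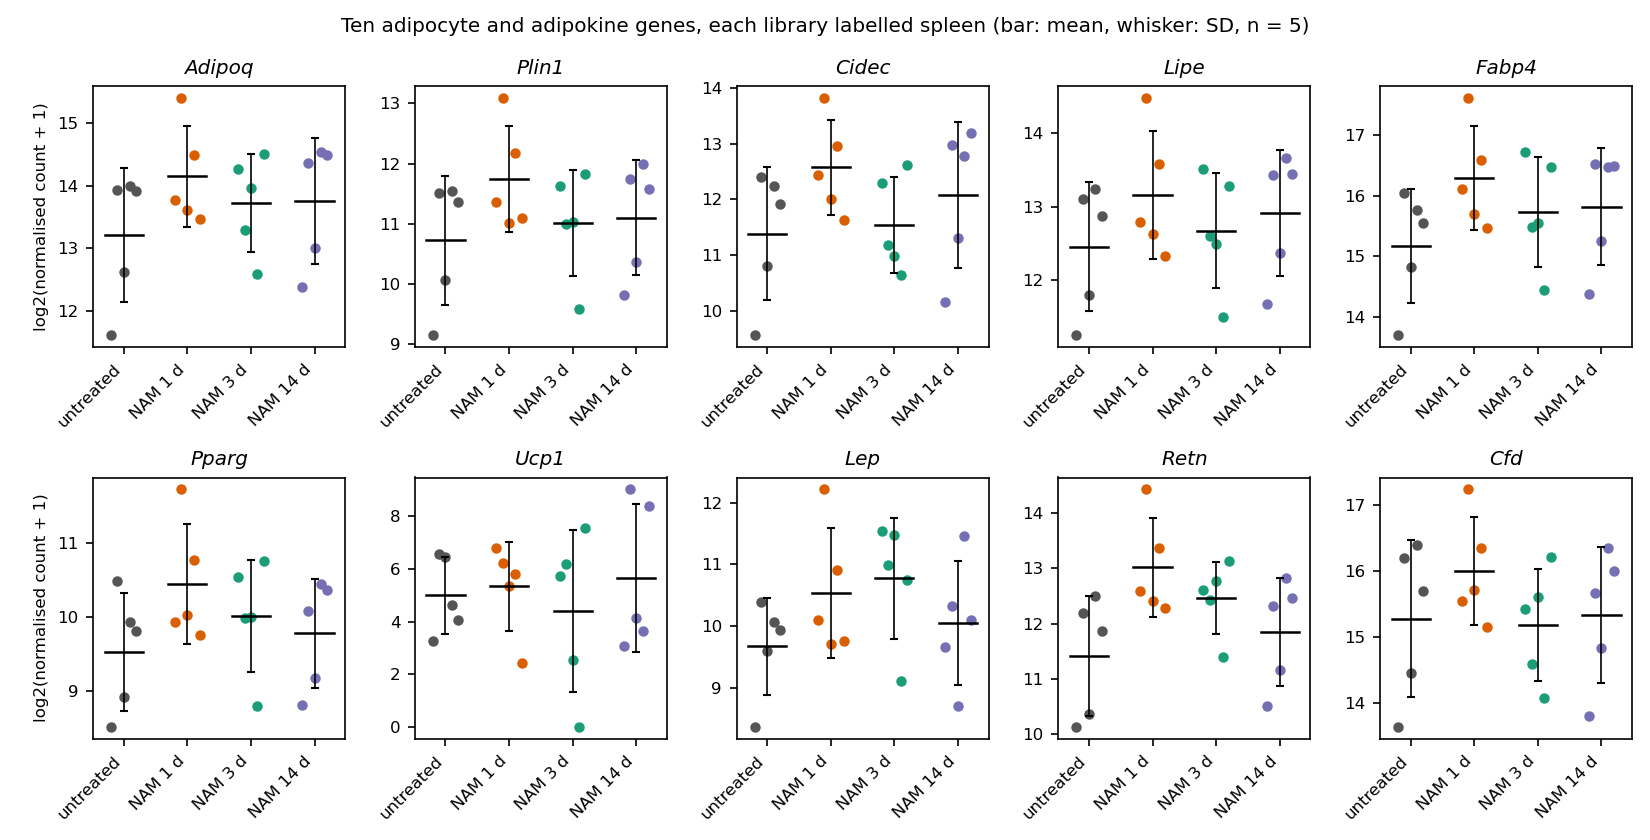
Each of the 10 genes in the 20 libraries labelled spleen, as log2(normalised count + 1), by group, with the mean as a bar and the SD as a whisker (n = 5). The treated and untreated ranges overlap for every gene, and the highest 1-day value of 9 genes belongs to replicate 2, which also had the most Adipoq at 43022 normalised counts.

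Tested directly, 1 of the 10 genes passed the threshold at 1 day under the spleen label (limma, Benjamini-Hochberg adjusted p under 0.05), where 16.6% of all 18243 genes passed. This was Retn, which rose. At 3 days 0 of 10 passed, against 5.55% of all genes, and at 14 days 0 of 10 passed, against 0% of all genes. At an unadjusted p under 0.05 the members counted 2, 0 and 0 of 10 at the 3 times, below the 30.9%, 22% and 2.8% (510 genes) of all genes. edgeR and DESeq2 on the recovered reads also called 1, 0 and 0 members. All 10 log2 fold changes were above 0 at 1 day and at 14 days and 8 were at 3 days, with medians at 1 day of 0.92 for the members and 0.0054 for all genes. The genes share the fat of each library, so their changes are not independent of each other.

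Among the genes of fat storage and release, Cidec, whose product enlarges lipid droplets, ranged from 760 to 5383 normalised counts in untreated and from 3188 to 14428 at 1 day. Its log2 fold change was 1.19 (SE 0.61, adjusted p = 0.19) at 1 day, 0.16 (SE 0.61) at 3 days and 0.69 (SE 0.61) at 14 days. Lipe, the hormone-sensitive lipase, lay between 2443 and 9704 in untreated libraries. It lay between 5145 and 22746 at 1 day, between 2897 and 11618 at 3 days, and between 3288 and 12876 at 14 days. Its changes of 0.70, 0.22 and 0.46 (SE 0.48 each) lay within the spread between replicates. The Lipe row overlaps the row of Pou2f2, and the strand used in counting is not stated, so some of its reads may belong to that gene. Fabp4, the fatty acid carrier of adipocytes, which endothelial cells and macrophages also make, went from 42593 ± 21634 (SD, n = 5) in untreated to 93881 ± 63687 at 1 day, a log2 fold change of 1.13 (SE 0.52, adjusted p = 0.15). Pparg changed by 0.91 (SE 0.44, adjusted p = 0.17), 0.49 and 0.25 at 1, 3 and 14 days, with ranges of 365 to 1433 in untreated and 864 to 3371 at 1 day.

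Retn, the gene for resistin (chr8:3655769-3659817), had the largest change of the hormone genes at 1 day. It stood at 1119, 4700, 1317, 5788 and 3726 normalised counts in untreated replicates 1 to 5 and at 6164, 22161, 5470, 10604 and 4987 at 1 day. At 1 day 3 of 5 values lay above every untreated value. At 3 days Retn was 6237, 5531, 6984, 2684 and 8981, and at 14 days 1444, 5135, 2287, 7262 and 5627. At 3 days 3 of 5 values, and at 14 days 1 of 5, lay above every untreated value. The log2 fold change of Retn was 1.61 (SE 0.52, adjusted p = 0.040) at 1 day, a 3.05-fold rise with a 95% interval of 1.43 to 6.49. It was 1.06 (SE 0.52, adjusted p = 0.24) at 3 days and 0.44 (SE 0.52, adjusted p = 1.00) at 14 days. The 1-day call was held by 6 of 10 other settings, with adjusted p from 0.021 to 0.15, and by 6 of 10 fits that left out a library. With library weights the log2 fold change was 0.95 (adjusted p = 0.15). Without untreated replicate 1, untreated replicate 3, 1-day replicate 2 or 1-day replicate 4 the adjusted p was 0.11, 0.10, 0.11 and 0.083. The sum of 7 neutrophil markers reached 9117 in a 1-day library against at most 1109 in untreated ones. Its part in the change of Retn was not tested.

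Cfd, the adipsin gene (chr10:79890853-79892660), stood at 12758, 75568, 22457, 86607 and 53333 normalised counts in untreated replicates 1 to 5. It was 48088, 155232, 53836, 83344 and 36277 at 1 day and 43845, 24607, 49825, 17333 and 76359 at 3 days. At 14 days it was 14275, 52347, 29294, 84142 and 65968. All treated groups overlapped with the untreated one, and the log2 fold changes of Cfd were 0.72, -0.10 and 0.06 (SE 0.56 each). The Cfd row lies within the row of Tmem259, whose mean was 3824 under the spleen label.

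Lep, the leptin gene (chr6:29060218-29073876), stood at 329, 1345, 773, 1070 and 983 normalised counts in untreated replicates and at 1093, 4747, 839, 1925 and 859 at 1 day. At 3 days it was 2957, 2020, 2848, 551 and 1720, and at 14 days 806, 1287, 417, 2801 and 1089. At 3 days 4 of 5 libraries were above every untreated library, and replicate 4 was not. The log2 fold change of Lep was 0.86 (SE 0.55, adjusted p = 0.30) at 1 day, 1.10 (SE 0.55, adjusted p = 0.25) at 3 days and 0.37 (SE 0.55) at 14 days.

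Ucp1, the uncoupling protein of thermogenic fat, was scattered. It stood at 8.66, 93.2, 87.5, 23.6 and 15.5 normalised counts in untreated replicates and at 112, 74.3, 40.3, 55.6 and 4.38 at 1 day. At 3 days it was 52.7, 72.6, 4.84, 0 and 189, and at 14 days 7.47, 520, 16.7, 11.5 and 335. Single libraries, such as replicates 2 and 5 at 14 days, were high in a group whose other libraries were low. Its log2 fold changes of 0.34, -0.58 and 0.67 each had SE 1.35, so changes of this size could not be detected. The summed level of 7 brown adipocyte markers also spread, from 98.7 to 728 in untreated, from 402 to 2046 at 1 day, from 149 to 1353 at 3 days and from 197 to 1889 at 14 days, with Zic1 at 0 in the untreated, 1-day and 14-day groups.

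How tightly each gene followed fat content set the members apart. Over the 20 libraries labelled spleen, Pearson's r of log2 levels with Adipoq was 0.98 for Plin1, 0.97 for Fabp4 and Lipe, 0.95 for Pparg and Cidec, 0.94 for Cfd and 0.92 for Retn. It was 0.81 for Lep and 0.51 for Ucp1. The libraries share dissection and scaling, and the points are not independent across groups, so these values are descriptions. Fat content, defined as the mean log2 level of Adipoq and Plin1, accounted for 91.5% to 96.4% of the variance within groups of Cidec, Lipe, Fabp4, Pparg, Retn and Cfd, for 72.6% of that of Lep and for 31.1% of that of Ucp1. The largest principal component of all genes, with 30.1% of the variance, had r = 0.95 with fat content over the same 20 libraries. Of all 18243 genes, 292 had r above 0.9 with Adipoq. The 10 genes outside the members most like Adipoq were Amy1, Adhfe1, Nat8l, Cebpa, Car3, Pex11a, Mgll, Mgst1, Ces1f and Ghr, with r from 0.985 down to 0.976 over 20 libraries.

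**Figure D3:**
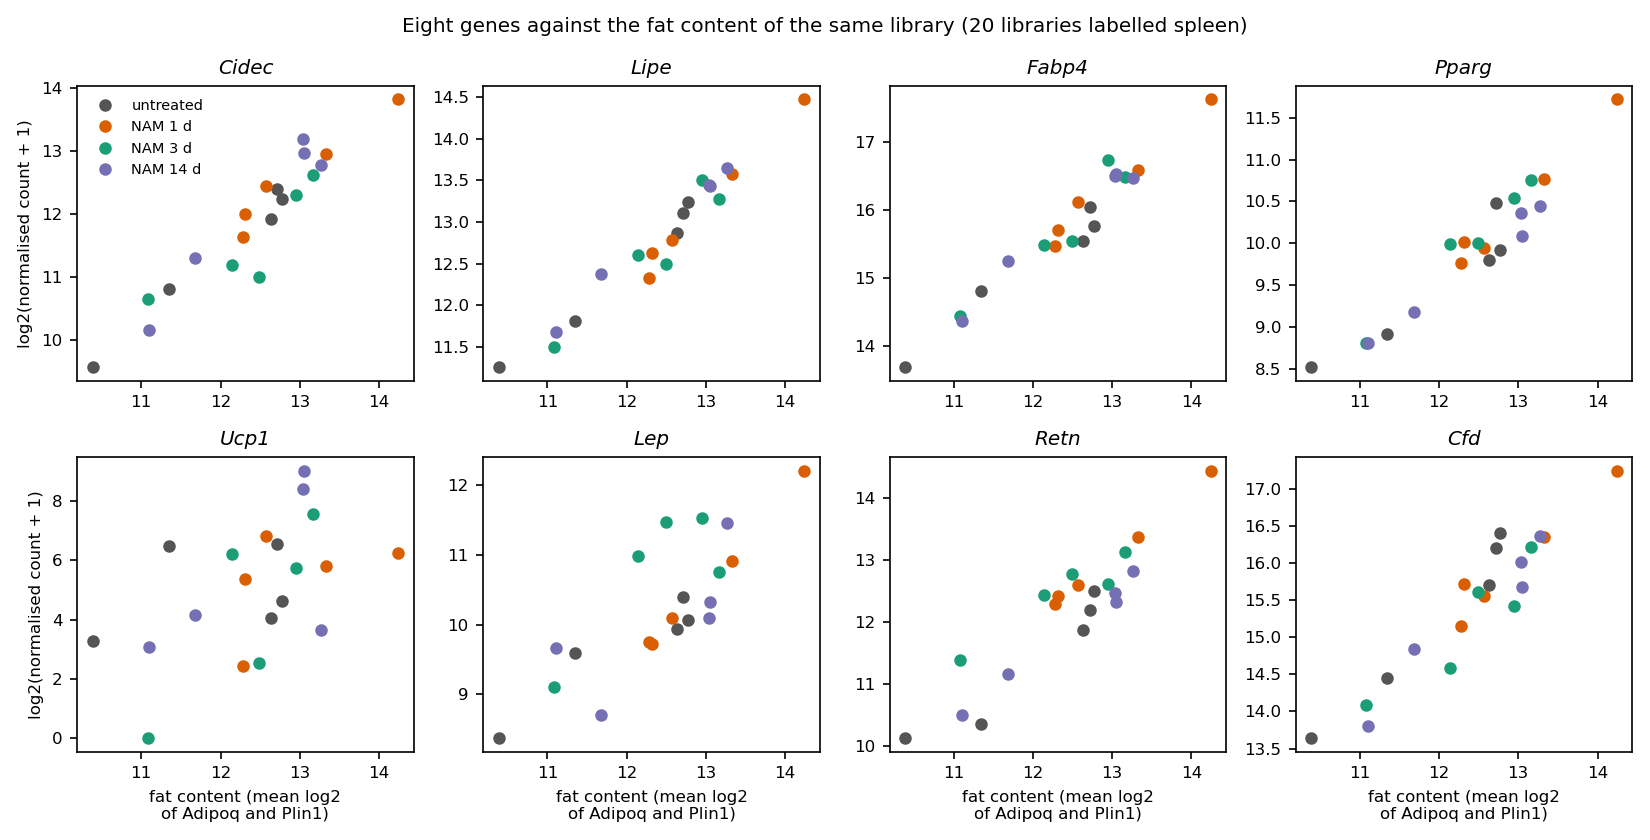
Level of 8 genes, as log2(normalised count + 1), against the fat content of the same library (mean log2 of Adipoq and Plin1) in the 20 libraries labelled spleen, coloured by group. Cidec, Lipe, Fabp4 and Pparg run along a line, Ucp1 scatters, and the 1-day and most 3-day points of Retn lie above the untreated points of like fat content.

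Given fat content, Retn was the member that rose, and Cfd the member that fell. In this fit the fat content of each library entered as a term beside the 4 groups, and Adipoq and Plin1, which make the term, were not counted. At 1 day 1 of the other 8 members passed, against 21.1% of all genes. At 3 days 2 of 8 passed, against 12.2% of all genes, and at 14 days 0 of 8, against 0.0164% (3 genes by limma, with 854 at an unadjusted p under 0.05). The log2 change of Retn at given fat content was 0.67 (SE 0.14, adjusted p = 0.0020) at 1 day, 0.68 (SE 0.13, adjusted p = 0.0037) at 3 days and 0.0023 (SE 0.13, adjusted p = 1.00) at 14 days. Against Adipoq and Plin1 in the same library, the log2 ratio of Retn was -0.26, -0.52, -0.98, -0.27 and -0.77 in untreated replicates 1 to 5. It was 0.02, 0.19, 0.10, 0.04 and 0.0039 at 1 day, all above every untreated library. At 3 days it was -0.34, 0.29, 0.28, 0.31 and -0.03, and replicate 1, the library that fell with the untreated ones on the component named above, was the low one. At 14 days the ratio was -0.61, -0.72, -0.52, -0.44 and -0.58, inside the untreated range. Retn kept its call at 1 and 3 days in all 10 fits that left out a library and in all 6 other settings, with adjusted p of at most 0.019. Without 3-day replicate 1 its change at 3 days was 0.77 (adjusted p = 7.6e-05). The share of normalised counts on mitochondrial rows was low in the libraries where this ratio was high. It was 8.92% to 9.85% in untreated libraries and 4.85% to 8.21% at 1 day. At 3 days it was 5.95% to 8.29% in replicates 2 to 5 and 14.0% in replicate 1, and at 14 days it was 8.44% to 11.9%. Its part in the change of Retn was not tested.

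The log2 ratio of Cfd to fat content was 3.25, 3.49, 3.11, 3.63 and 3.07 in untreated replicates and 2.47, 2.44, 3.11, 3.00 and 3.06 at 3 days. At 3 days 4 of 5 libraries lay below every untreated library, and replicate 3 did not. The change of Cfd at given fat content was -0.50 (SE 0.15, adjusted p = 0.034) at 3 days. It was -0.28 (SE 0.16, adjusted p = 0.23) at 1 day and -0.41 (SE 0.15, adjusted p = 0.99) at 14 days. The 3-day call was lost without untreated replicate 1, 2 or 4 or 3-day replicate 2 (adjusted p = 0.054, 0.088, 0.10 and 0.11), and with Plin1 alone as fat content (-0.38, adjusted p = 0.16).

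The log2 ratio of Lep to fat content at 3 days was -1.42, -1.16, -1.01, -1.97 and -2.41, against -2.02, -2.32, -1.75, -2.71 and -2.69 in untreated. In 3 of the 5 libraries it was above every untreated library, and the change of 0.75 (SE 0.28, adjusted p = 0.086) did not pass. With Plin1 alone as fat content it was 0.84 (adjusted p = 0.043). At 1 and 14 days the change of Lep was 0.0036 (SE 0.30) and -0.03 (SE 0.28). Fabp4, Cidec, Lipe and Pparg changed by -0.27 to 0.21 at given fat content over the 3 times, and none passed. With the 10 genes most like Adipoq as fat content, chosen after the data were seen, Lipe passed at 1 day (-0.26, adjusted p = 0.042) and at 3 days (-0.26, adjusted p = 0.049). Ucp1 changed by -1.05 (SE 1.18), -1.14 (SE 1.10) and 0.01 (SE 1.11) and did not pass either.

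**Figure D4:**
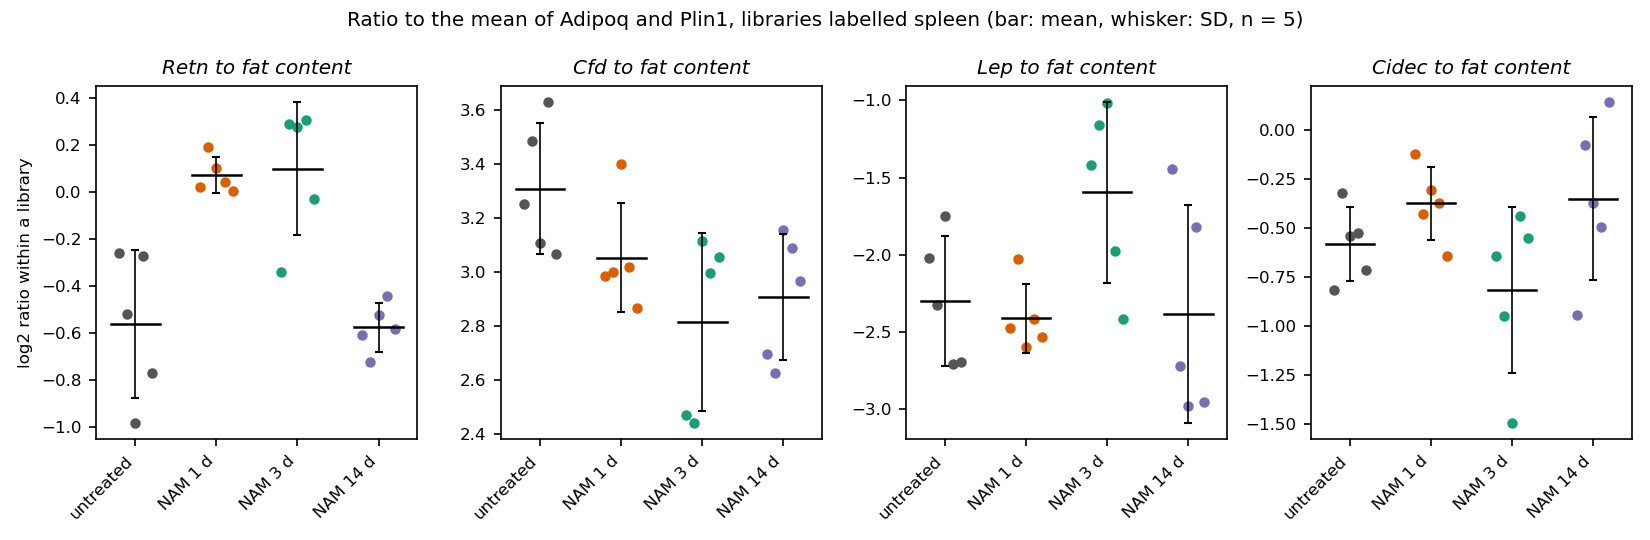
Log2 ratio of Retn, Cfd, Lep and Cidec to the mean of Adipoq and Plin1 within each library labelled spleen, by group, with mean (bar) and SD (whisker, n = 5). For Retn the 5 libraries at 1 day (0.0039 to 0.19) lie above the 5 untreated ones (-0.98 to -0.26), and the 14-day libraries do not.

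**Figure D5:**
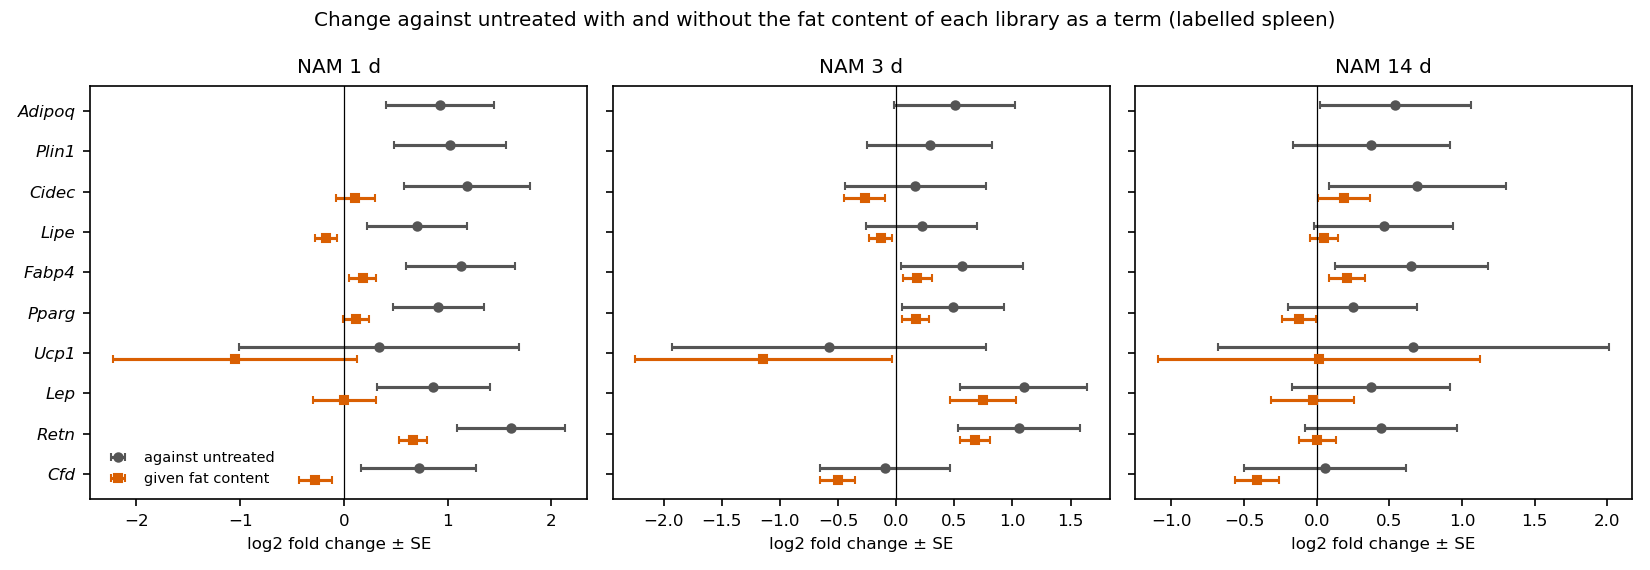
Log2 fold change against untreated for each gene at 1, 3 and 14 days under the spleen label, with SE as whiskers, in grey for the plain fit and in orange with fat content as a term. The SE of Retn narrows from 0.52 to 0.14 at 1 day with the term, and Adipoq and Plin1 have no orange point because they define it.

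Other genes of the adipocyte pathways were counted from 5 lists. Of 28 genes of fat storage and lipolysis tested under the spleen label, 4 rose and 0 fell at 1 day, with a median log2 fold change of 1.00 against 0.0054 over all genes. At an unadjusted p under 0.05 there were 12 of 28, a larger share than the 30.9% of all genes. The count of 4 called was a smaller share than the 16.6% of all genes called. The largest rises were Thrsp, a lipogenic regulator (1.77, SE 0.60, adjusted p = 0.049), and Cd36, a fatty acid transporter (1.40, SE 0.46, adjusted p = 0.042). The others, named after their values were seen, were Dgat1 and Abhd5, which act in triglyceride synthesis and lipolysis. Without 1-day replicate 2 the count was 1. Given fat content, 6 rose and 1 fell at 1 day, with the same counts without that library, where 21.1% of all genes passed. At 3 days 0 of 28 passed in the plain fit by limma, with 2 at an unadjusted p under 0.05 (22% of all genes) and 0 by edgeR or DESeq2. Given fat content 8 rose and 0 fell at 3 days, where 12.2% of all genes passed. Thrsp rose by 0.69 (SE 0.17, adjusted p = 0.0072) and Abhd5 by 0.62 (SE 0.12, adjusted p = 0.0012) at 1 day at given fat content, and G0s2, an inhibitor of lipolysis, fell by 0.74 (SE 0.22, adjusted p = 0.019). At 3 days Thrsp rose by 0.87 (SE 0.16, adjusted p = 0.0033) and Cd36 by 0.74 (SE 0.10, adjusted p = 0.00077). At 14 days 0 of 28 passed in either fit by limma, 0 reached an unadjusted p under 0.05 in the plain fit, and edgeR and DESeq2 called 0.

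Of 12 genes of adipogenic transcription, 0 passed in the plain fit at any time by limma, with 3, 3 and 0 at an unadjusted p under 0.05 (30.9%, 22% and 2.8% of all genes, which also hold for the counts at unadjusted p of the lists that follow) and 0 by edgeR or DESeq2, and 1 fell at 3 days without 3-day replicate 1. Given fat content, 2 fell at 1 day, namely Cebpb (-0.85, SE 0.15, adjusted p = 0.0010) and Rxra (-0.30, SE 0.10, adjusted p = 0.040), a smaller share than the 21.1% of all genes. At 3 days 4 fell, of which Cebpb (-0.61, SE 0.14, adjusted p = 0.012) and Zfp423 (-0.43, SE 0.12, adjusted p = 0.021) fell most, beside Rxra and Nr1h3, which were named after their values were seen, where 12.2% of all genes passed. Without 3-day replicate 1 the count was 3. Of 10 thermogenic genes tested 0 passed at any time in either fit by limma, with 3, 0 and 0 at an unadjusted p under 0.05 in the plain fit and 0 by edgeR or DESeq2. Of 12 other adipokines 0 passed in the plain fit by limma, with 2, 1 and 0 at an unadjusted p under 0.05, 0 by edgeR and 1 by DESeq2 at 3 days. Given fat content, 1 of the 12 passed at 1 day and 2 at 3 days, against 21.1% and 12.2% of all genes. Rbp4, the retinol carrier, rose by 0.43 (SE 0.12, adjusted p = 0.014) at 1 day and 0.54 (SE 0.11, adjusted p = 0.0062) at 3 days, and Angptl4, an inhibitor of lipoprotein lipase, fell by 1.15 on the log2 scale (SE 0.28, adjusted p = 0.013) at 3 days. Of 8 genes of adipokine and insulin receptors and signalling, Adipor1, an adiponectin receptor (-0.20, SE 0.05, adjusted p = 0.030), and Irs2, an insulin receptor substrate (-0.50, SE 0.13, adjusted p = 0.036), fell at 3 days in the plain fit, where 5.55% of all genes passed. At 1 day 0 of 8 passed in that fit by limma, with 3 at an unadjusted p under 0.05 and 1 by edgeR and by DESeq2. At given fat content both fell at 3 days, where 12.2% of all genes passed. Irs2 was the 1 of 8 that fell at 1 day (-0.48, SE 0.13, adjusted p = 0.014), where 21.1% of all genes passed.

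Markers of other cell types moved beside these results. Of 9 fibroblast and preadipocyte markers, 4 (Pi16, Col1a1, Col3a1 and Cd34) fell and 0 rose at given fat content at both 1 and 3 days, with log2 changes from -1.40 to -0.45 at 1 day, where 21.1% of all genes passed at 1 day and 12.2% at 3 days in either direction. The summed level of the 9 lay between 38113 and 104080 in untreated libraries, between 43229 and 124344 at 1 day, and between 39406 and 60019 at 3 days, and none was at 0. Of 6 neutrophil markers tested none was called at given fat content, with median log2 changes of 1.62 at 1 day and 0.53 at 3 days. The summed level of all 7 lay between 197 and 1109 in untreated libraries, between 380 and 9117 at 1 day, and between 388 and 1245 at 3 days. Of 8 macrophage markers 1 was called higher at both times and 1 lower at 3 days, which is 1 and 2 of 8 against the same shares over all genes. Their sum was 34282 to 55354 in untreated, 32692 to 45311 at 1 day and 31331 to 39437 at 3 days. The part of these markers in the results at given fat content was not tested.

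Under the lymph node label the members gave no call. At 1 day 0 of 5 tested members passed, against 1.21% of all 18215 genes, at 3 days 0 of 5, against 1.24%, and at 14 days 0 of 5, against 0.791%. At an unadjusted p under 0.05 the limma counts were 1, 1 and 0 of 5, against 15%, 14.8% and 11.8% of all genes, and edgeR and DESeq2 called 0 members. Pparg was the member that came closest. It stood at 757, 697 and 778 normalised counts in untreated replicates, at 1032 and 1066 at 1 day, and at 858, 896, 1326 and 806 at 3 days. All 1-day and 3-day values lay above the untreated ones, and the 14-day values, from 670 to 842, overlapped them. The log2 fold change of Pparg was 0.50 (SE 0.16, adjusted p = 0.15) at 1 day and 0.36 (SE 0.13, adjusted p = 0.22) at 3 days. With only the untreated and 1-day libraries in the fit it passed (adjusted p = 0.030).

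Adipoq stood at 16.3, 55.1 and 26.5 in untreated libraries labelled lymph node and at 14.9 and 12.3 at 1 day, below all untreated ones, with a log2 fold change of -1.04 (SE 0.68, adjusted p = 0.50). With a library left out this change ran from -1.43 to -0.59. At 3 days Adipoq lay between 6.63 and 49.2 and overlapped the untreated libraries. Its change was -0.71 (SE 0.57) at 3 days and -0.05 (SE 0.57) at 14 days, and neither passed. Cfd was at 20.4, 93.7 and 21.0 in untreated, 0 and 22.4 at 1 day, 0, 3.54, 0.91 and 70.0 at 3 days, and 67.4, 1.73, 0 and 6.99 at 14 days. The groups overlapped, and the log2 fold changes of -2.87 (SE 1.73), -2.83 (SE 1.44) and -2.51 (SE 1.44) did not pass. With a library left out the change of Cfd ran from -5.15 (without 1-day replicate 2) to -0.60 (without 1-day replicate 1) at 1 day, from -4.11 to -2.06 at 3 days and from -3.67 to -1.63 at 14 days. Under the other settings it ran from -4.52 to -1.78, from -3.93 to -1.17 and from -3.49 to -1.14, and it passed in none of these fits. Fabp4 ranged from 333 to 1422 and Lipe from 766 to 919 normalised counts over all 13 libraries, with no change past the threshold. Lep had no read in 12 of the 13 libraries, where 3 reads, the most that a count of 0 allows, would equal 2.31 to 3.43 normalised counts, and it had 4 reads in 14-day replicate 1. Retn had 52 reads over the 3 untreated libraries and 4, 18 and 32 over those at 1, 3 and 14 days. Plin1 failed the filter there, so the fit with fat content as a term was not made under this label. Whether the 5 members tested under both labels changed differently was tested as an interaction, and 0 of 5 passed at 1, 3 and 14 days, against 1.69%, 0.735% and 0.14% of 17147 genes. The smallest unadjusted limma p was 0.043, for Adipoq at 1 day (adjusted p = 0.27), and Cfd at 1 day gave 0.044.

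Among pathway genes under the lymph node label, Cebpd, a C/EBP factor of early adipogenesis, rose by 1.13 (SE 0.10, adjusted p = 1.5e-05) at 1 day and 0.55 (SE 0.08, adjusted p = 0.0018) at 3 days. Klf15, a glucocorticoid-responsive factor, rose by 1.29 (SE 0.20, adjusted p = 0.0047) at 1 day. They were the 2 genes called of 11 adipogenic transcription genes tested at 1 day, and 1 was called without 1-day replicate 1, where 1.21% of all genes passed in the full fit. Myeloid markers were higher in sum in the same libraries. By limma 1 of 8 macrophage and 0 of 7 neutrophil markers were called, against 1.21% of all genes. The sum of 8 macrophage markers was 107772 to 120944 at 1 day against 85084 to 88523 in untreated, and that of 7 neutrophil markers 24940 to 33602 against 12224 to 22691, with 6 of 8 and 6 of 7 at an unadjusted p under 0.05, against 15% of all genes. Their part in the rises of Cebpd and Klf15 was not tested. At 3 days Agpat2, an enzyme of triglyceride synthesis, rose by 0.35 (SE 0.08, adjusted p = 0.041), and Slc2a4, the insulin-responsive glucose transporter, fell by 2.99 on the log2 scale (SE 0.51, adjusted p = 0.0055), as the 2 genes called of 23 of fat storage tested, where 1.24% of all genes passed. In the same comparison 5 of 7 erythroid markers were called lower, with a median log2 fold change of -1.79 and a sum of 263193 to 1140180 against 1208740 to 2510210 in untreated. Their part in the change of Slc2a4 was not tested. At 1 and at 14 days 0 of the 23 fat storage genes were called by limma. At an unadjusted p under 0.05 there were 7 at each of these times, against 15% and 11.8% of all genes. For this list DESeq2 called 1, 3 and 0 genes at 1, 3 and 14 days, and edgeR 0, 2 and 0. Of the 11 adipogenic transcription genes, 0 were called by limma at 14 days and 1 by DESeq2. The thermogenic, other adipokine and receptor lists had 0 genes called by limma under this label, of 6, 10 and 8 tested. At an unadjusted p under 0.05 they had 1, 6 and 1 genes at 1 day, 0, 1 and 2 at 3 days and 2, 1 and 0 at 14 days, where 15%, 14.8% and 11.8% of all genes did so, and edgeR called 0 and DESeq2 1, a thermogenic gene at 14 days.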

How the data were processed

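The members and gene lists were chosen with earlier results of these data known. Polyadenylated RNA was sequenced in 33 libraries. The authors deposited a table of normalised counts, a signal that is each library's reads divided by a DESeq2 size factor. The submitters' processing notes name STAR 2.4.0 and mm10, and the strand setting is not given in the sources used here. Groups and replicate numbers came from the sample titles, and columns were matched through the descriptions.

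Every value was a whole multiple of what 1 read is worth in its library (100% of values in the lowest library, within 0.1 reads), which returned the reads. Depth was 18325061 to 54830743 reads per library, and this limits the precision of genes with few reads. Limits for a count of 0 cover counting error only. Replicates were compared in 56 pairs, the lowest chi-square per degree of freedom was 8.93, and each library counted as a replicate. Nothing in the labels says which mouse each library came from, so p-values measure the spread between these libraries.

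The test scale was log2(normalised count + 1), fitted with limma 3.58.1 (R 4.3.3), with an intensity trend, all 4 groups of a label in 1 fit, a mean of at least 10, and two-sided p-values adjusted by Benjamini-Hochberg over all genes tested, at a threshold of 0.05. On this scale changes of low genes are understated. A further fit added the mean log2 of Adipoq and Plin1 as fat content, and the difference between the labels was tested in 1 fit over all 33 libraries. The scripts were tested on simulated data. Named were all members, at most 2 rises and 2 falls per list and comparison, and the 10 genes most correlated with Adipoq. Alternatives included edgeR 4.0.16 and DESeq2 1.42.0 on the whole reads. The 10 genes most like Adipoq as fat content, and list counts without 3 libraries, were added after the data were seen. RefSeq promoters (GRCm38.p6) were searched with Python 3.11.15, and coordinates of genes are those of the table (mm10).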

Additional observations from a re-analysis of the deposited data

Results flagged for a closer look

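In 90 sets of 4 or 5 libraries examined, 6 held a library far from the others of its group (6.67% of sets). The cut-off is set for about 1 in 20 among independent, normally spread values. The sets share libraries and include counts without a log scale, so that rate is not a yardstick for them. Under the spleen label, Lep was 4747 normalised counts in 1-day replicate 2, against 839 to 1925 in the others. That library also had the most Adipoq. The log2 ratio of Adipoq to Plin1 was 2.91 in 14-day replicate 5, against 2.54 to 2.64. The log2 ratio of Cfd to fat content was 3.40 in 1-day replicate 3, against 2.87 to 3.02.

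Under the lymph node label, Cfd was 70.0 normalised counts in 3-day replicate 4, against 0 to 3.54, and 67.4 in 14-day replicate 1, against 0 to 6.99. Adipoq was 71.3 in 14-day replicate 1, against 17.3 to 25.2. The same library held the 4 reads of Lep, 9.51 normalised counts of Cidec and 19 of Retn.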

How the results depend on the processing

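The count of members called at 1 day under the spleen label was 0 with no filter on low values, quantile normalisation, library weights or only the 2 groups compared (7.1%, 16.7%, 21.6% and 12% of all genes called), 2 when a change of 1.5-fold or more at an unadjusted p up to 0.05 was counted (8.21% of all genes), and 0 to 1 with a library left out (12.5% to 15.8%). Given fat content, the count at 3 days was 1 to 2 with a library left out (5.2% to 22.7% of all genes), and at 1 day it was 2 with the 10 genes most like Adipoq as fat content (chosen after the data were seen, 21.6% of all genes), with Lipe as the added member, which was also called at 3 days. Under the lymph node label at 1 day it was 1 with only the 2 groups compared (1.59% of all genes). The cause of these shifts was not tested. The counts not named here stayed within 1.5 times under every alternative run. Replicate numbers were not used as pairs in the main fits, since not every pair correlated over 0.1. Under the spleen label 4 of 5 did so at 1 day, 1 of 5 at 3 days and 4 of 5 at 14 days. There r ran from -0.32 to 0.32, from -0.33 to 0.11 and from -0.10 to 0.47, and under the lymph node label no pair passed 0.1. This check cannot exclude a match by number under the spleen label, since most pairs at 1 and 14 days passed it. With the replicate number as a block the plain count at 1 day stayed at 1. Given fat content the counts stayed at 1 at 1 day and 2 at 3 days. The count of members whose change differed between labels was 0 under each pseudocount, with library weights and with each library left out.

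Changes that crossed 0 were those of members not called. With quantile normalisation, Cfd at 14 days (spleen label) became -0.00617. With library weights, Plin1 at 3 days (spleen label) became -0.10, Cidec at 3 days (spleen label) became -0.40, Lipe at 3 days (spleen label) became -0.19, Plin1 at 14 days (spleen label) became -0.00534, Pparg at 14 days (spleen label) became -0.0591, Cfd at 14 days (spleen label) became -0.38, Adipoq at 14 days (lymph node label) became 0.25. With edgeR quasi-likelihood test on the whole reads, Ucp1 at 3 days (spleen label) became 0.47, Cfd at 14 days (spleen label) became -0.0386, Adipoq at 14 days (lymph node label) became 0.0559. With DESeq2 on the whole reads, Ucp1 at 3 days (spleen label) became 0.48, Cfd at 14 days (spleen label) became -0.0281, Adipoq at 14 days (lymph node label) became 0.0385. With Adipoq alone as fat content, Lipe given fat content at 14 days (spleen label) became -0.0245, Ucp1 given fat content at 14 days (spleen label) became -0.0915, Retn given fat content at 14 days (spleen label) became -0.0813. With Plin1 alone as fat content, Lep given fat content at 1 day (spleen label) became -0.0315, Lep given fat content at 14 days (spleen label) became 0.045. With pseudocount 0.1, Ucp1 given fat content at 14 days (spleen label) became -0.15. With replicate block, Lep given fat content at 1 day (spleen label) became -0.0968, Ucp1 given fat content at 14 days (spleen label) became -0.0287. With fat content as the mean log2 of the 10 genes most like Adipoq, Lep given fat content at 1 day (spleen label) became -0.077, Cidec given fat content at 1 day (spleen label) became -0.0107, Lipe given fat content at 14 days (spleen label) became -0.0107, Ucp1 given fat content at 14 days (spleen label) became -0.0979, Retn given fat content at 14 days (spleen label) became -0.0589. With 1 library left out, Ucp1 at 1 day (spleen label) ran from -0.0883 to 1.07, Plin1 at 3 days (spleen label) ran from -0.11 to 0.65, Cidec at 3 days (spleen label) ran from -0.29 to 0.41, Lipe at 3 days (spleen label) ran from -0.0815 to 0.51, Cfd at 3 days (spleen label) ran from -0.51 to 0.18, Ucp1 at 3 days (spleen label) ran from -1.37 to 0.52, Plin1 at 14 days (spleen label) ran from -0.0179 to 0.70, Pparg at 14 days (spleen label) ran from -0.0071 to 0.49, Cfd at 14 days (spleen label) ran from -0.35 to 0.44, Ucp1 at 14 days (spleen label) ran from -0.18 to 1.31, Lep given fat content at 1 day (spleen label) ran from -0.10 to 0.0994, Lep given fat content at 14 days (spleen label) ran from -0.31 to 0.17, Retn given fat content at 14 days (spleen label) ran from -0.10 to 0.098, Ucp1 given fat content at 14 days (spleen label) ran from -0.57 to 0.75, Lipe given fat content at 14 days (spleen label) ran from -0.00111 to 0.10, Fabp4 at 3 days (lymph node label) ran from -0.26 to 0.00311, Lipe at 3 days (lymph node label) ran from -0.0143 to 0.0734, Adipoq at 14 days (lymph node label) ran from -0.50 to 0.40, Pparg at 14 days (lymph node label) ran from -0.0264 to 0.0835, Fabp4 at 14 days (lymph node label) ran from -0.12 to 0.58. Members with few reads under the lymph node label are limited by depth.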

Other observations

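Under the lymph node label Adipoq had values of 6.63 to 71.3 normalised counts, and the genes outside the members with the highest r with it over 13 libraries were Slc26a10, Smpd3, Wdr7, the row of Smap2 and Mir7015, Rhbdd2, Larp1, Col1a1, GSMG0039216 (a row without a symbol), Ctdsp1 and Gtf2ird1, with r from 0.91 down to 0.79. None of these was among the 10 genes most like Adipoq under the spleen label. Over those 13 libraries Cfd had r = 0.71 with Adipoq, Lipe 0.50, Fabp4 0.0031 and Pparg -0.33. Adipoq and Cfd had few reads there, with means of 26.6 and 23.7 normalised counts, and the low level of Adipoq limits all of these values. Fabp4, Lipe and Pparg were not low, with means of 551, 849 and 866.

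Within groups labelled spleen, after the mean of each group was removed, the r of Retn with Adipoq was 0.97 over 20 libraries, and that of Cfd was 0.97, compared with 0.92 and 0.94 before. For Lep it was 0.83 and for Ucp1 0.54.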
